A study of Homo sapiens with 4 samples.

Results

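The 10 genes described here encode microtubule-associated proteins and the tubulins of neuronal microtubules. They are MAP1A, MAP1B, MAP2, MAPT and MAP6, and the tubulin genes TUBA1A, TUBB2A, TUBB2B, TUBB4A and TUBB6. They were taken by name: each is the transcript cluster (the array's unit for a gene) whose platform annotation gives that single symbol, and the cluster with the highest mean signal where a gene had several. All 10 were found among 22465 genes tested, 9 with 1 cluster and MAPT with 2. The cells were SH-SY5Y, an established human neuroblastoma line that forms neurites when it is differentiated. One group of 2 arrays carried a control short hairpin RNA (shRNA), and the other group of 2 arrays an shRNA against LSD1+8a, the neuronal form of LSD1, a histone demethylase encoded by KDM1A, whose transcript includes exon 8a. Both groups had been exposed to 10 μM retinoic acid over 4 days, followed by BDNF at 50 ng/mL over 3 days with no serum present. The labels do not say how many hairpins were used or whether replicate arrays came from separate cultures, so p-values reflect nothing beyond the spread from array to array, and that spread may be technical.

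Microtubules are hollow polymers of alpha- and beta-tubulin dimers that give axons and dendrites their shape and serve as tracks for transport. Neurons use a particular mix of tubulin isotypes, and microtubule-associated proteins bind the lattice and set its stability, spacing and growth. MAP2 is known as a marker of dendrites and the cell body, tau (encoded by MAPT) as a protein of axons, MAP1B as a protein of growing axons, and MAP1A as a relative of MAP1B that is more abundant in mature neurons.

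The sequences just before the transcript starts of 4 of the genes are shown because they contrast MAP1A, the member that rose with the LSD1+8a shRNA, with its relative MAP1B, and because TUBB2A and TUBB2B are neighbouring genes with closely similar proteins. They are the 250 bases before the first listed start in RefSeq, build GRCh38.p14, on the strand of the gene and 5′ to 3′. Positions are chr15:43510704-43510953 (plus strand) for MAP1A, chr5:72107225-72107474 (plus strand) for MAP1B, chr6:3157545-3157794 (minus strand) for TUBB2A and chr6:3227654-3227903 (minus strand) for TUBB2B. Capitals mark matches on either strand to the GC box GGGCGG, the CCAAT box CCAAT and the TATA box TATAAA.
MAP1A: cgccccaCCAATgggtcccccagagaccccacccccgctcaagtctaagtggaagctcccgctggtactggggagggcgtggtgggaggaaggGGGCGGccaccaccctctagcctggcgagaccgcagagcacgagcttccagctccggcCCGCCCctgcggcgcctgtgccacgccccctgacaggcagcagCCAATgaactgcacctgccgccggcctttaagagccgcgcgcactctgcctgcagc
MAP1B: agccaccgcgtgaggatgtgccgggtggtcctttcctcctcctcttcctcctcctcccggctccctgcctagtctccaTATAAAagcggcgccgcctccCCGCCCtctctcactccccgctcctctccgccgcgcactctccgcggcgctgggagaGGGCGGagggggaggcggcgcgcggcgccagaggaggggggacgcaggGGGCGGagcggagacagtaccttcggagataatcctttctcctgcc
TUBB2A: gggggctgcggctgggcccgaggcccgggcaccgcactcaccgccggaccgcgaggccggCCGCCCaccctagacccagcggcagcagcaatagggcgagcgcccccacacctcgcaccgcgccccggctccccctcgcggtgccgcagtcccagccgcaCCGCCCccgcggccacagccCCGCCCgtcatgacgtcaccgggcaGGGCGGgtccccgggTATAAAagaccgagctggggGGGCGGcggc
TUBB2B: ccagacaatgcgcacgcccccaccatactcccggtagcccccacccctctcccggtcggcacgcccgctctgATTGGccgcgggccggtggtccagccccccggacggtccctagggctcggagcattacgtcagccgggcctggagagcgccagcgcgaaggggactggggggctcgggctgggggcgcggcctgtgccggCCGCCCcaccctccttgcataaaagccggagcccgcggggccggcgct
The MAP1A window held 2 GC boxes and 2 CCAAT boxes and no TATA box, and that of MAP1B 3 GC boxes and 1 TATA box. Both genes have a second listed start, not shown. Its window held 4 GC boxes and no CCAAT or TATA box for MAP1A, and 2 GC boxes and 1 TATA box for MAP1B. The counts therefore depend on the start chosen. TUBB2A had 5 GC boxes and 1 TATA box, whereas TUBB2B had 1 GC box and 1 CCAAT box. Matches to different motifs did not overlap in these windows. The windows of TUBB2A and TUBB2B had 149 identical bases (59.6% of 250) in a global alignment with gaps, and the longest stretch they shared was 11 bases. Unrelated windows were not aligned, so these numbers have no baseline. G and C made up 79.2% of the TUBB2A window and 75.2% of the TUBB2B window, beside a median of 58% over all windows. Among 35116 windows of this length in RefSeq, 42.6% held a GC box, 32.0% a CCAAT box and 10.7% a TATA box. The motif TTCAGCACC, one side of the RE1 element that the repressor REST binds, was in 0.288% of them and in 0 of the 14 windows that RefSeq gave for 8 of the genes. A match is only a run of letters, and its absence from this window says nothing about a factor. MAPT and MAP6 had no entry.

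**Figure D1:**
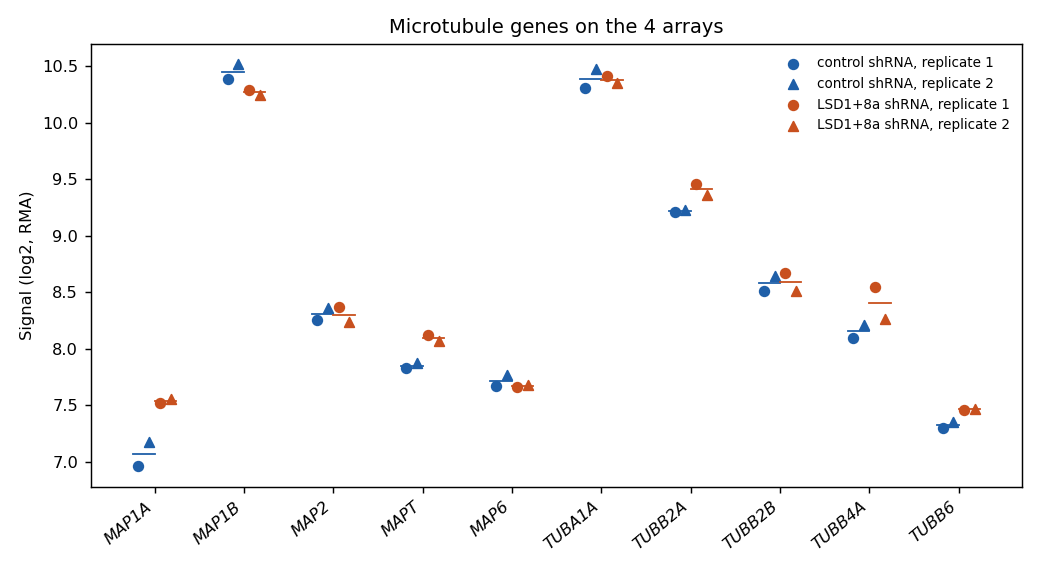
Log2 RMA signal (y axis) of each of the 10 genes (x axis) on the control shRNA arrays (blue) and the LSD1+8a shRNA arrays (orange), with circles for replicate 1, triangles for replicate 2 and lines for the mean of 2 arrays. Both MAP1A points of the LSD1+8a shRNA group (7.53 and 7.56) lie above both control points (6.96 and 7.18), while the 4 points of MAP2 interleave between 8.24 and 8.37.

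As a check of the knockdown, KDM1A read 9.10 and 9.25 in control cells and 8.76 and 8.78 in LSD1+8a shRNA cells, a log2 difference of -0.41 ± 0.09 (SE; limma adjusted p = 0.0299). This value covers the whole gene and does not measure the exon 8a form. Median log2 signals over all genes were 6.16 to 6.25 on the 4 arrays. With limma, 2721 genes were higher and 2524 lower at an adjusted p of 0.05. The higher share of these calls was 51.9% as deposited, 28.8% after centring the arrays on their gene medians, 10.0% after centring on the medians of all transcript clusters and 27.8% after cyclic loess. Centring on all transcript clusters moved the median difference of all genes from 0.08 to -0.04. Limma called 0 genes when control replicate 1 was left out (9835 at an unadjusted p under 0.05) and 0 when control replicate 2 was (5339). Such a fit sets 1 array against 2, so each gene's own spread comes from the other group alone and the lone array is assumed to vary like it. Limma called 1355 when the first LSD1+8a array was left out and 2834 when the second was. The adrenergic transcription factor genes GATA3 (8.91 to 9.46) and ISL1 (9.69 to 10.28) mark this line's lineage. They stood at percentiles 97.8 and 99.4 of all genes by mean signal. Limma called both, in opposite directions (log2 differences 0.47 and -0.46). The 12 measured adrenergic markers ran from percentile 47.9 (INSM1) to 99.9 (DBH). SOX10, a Schwann cell marker, stood at percentile 51.9 and read 6.08 to 6.48, among the background features with a GC count of 18 to 20. SOX10 was also called higher (log2 difference 0.34, limma adjusted p = 0.0350).

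Among the 10 genes, limma called 1 higher and 0 lower, and 9 missed the threshold, where 23.3% of all genes tested were called (12.1% higher and 11.2% lower). The 1 that rose was MAP1A. The median log2 difference of the 10 genes was 0.07, beside 0.08 over all genes, and single differences ran from -0.18 (MAP1B) to 0.47 (MAP1A). At an unadjusted p under 0.05 there were 2 members, MAP1A and MAPT, where 45.1% of all genes were. The groups did not overlap for 6 of the 10 genes, 5 higher and 1 lower, where 74.4% of all genes did not overlap (46.7% higher and 27.7% lower). As deposited, these totals lay below their backgrounds, and the share that was higher without overlap (5 of 10) was close to its own. That order did not hold in every scaling. After quantile normalization and cyclic loess, 3 of the 10 genes were called, above the 15.5% and 10.9% of all genes. With either scaling 5 of the 10 had an unadjusted limma p under 0.05, beside 8783 and 8122 of 22465 genes.

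For the 9 genes that did not pass, the 95% intervals of the difference (not adjusted for the number of genes) lay within 1.5-fold in both directions. A p that misses the threshold does not show that a gene was at the same level in both groups. These arrays measured RNA from whole cultures, so fewer cells of a type and less RNA per cell cannot be told apart. By mean log2 signal the 10 genes stood at percentiles 75.8 to 99.7 of all genes. Every value of the 10 genes lay above the background features with GC counts up to 20, whose highest reading was 6.80. The array's background features with GC counts of 21 to 25 read 7.18 to 10.61. The signals of the 10 genes thus do not separate from the whole range of background readings. On control replicates 1 and 2 MAP1A (6.96 and 7.18) lay at or below the background feature with a GC count of 21 (7.24 and 7.18). The median log2 difference of all genes depended on level. It was 0.21 for genes with a mean signal between 5 and 6, -0.05 between 7 and 8, -0.09 between 8 and 10, and -0.11 between 10 and 14. In the same ranges limma called 31.0%, 25.2%, 23.5% and 15.9% of genes. The 10 genes all had mean signals above 7, so the median over all genes is not matched to their level.

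**Figure D2:**
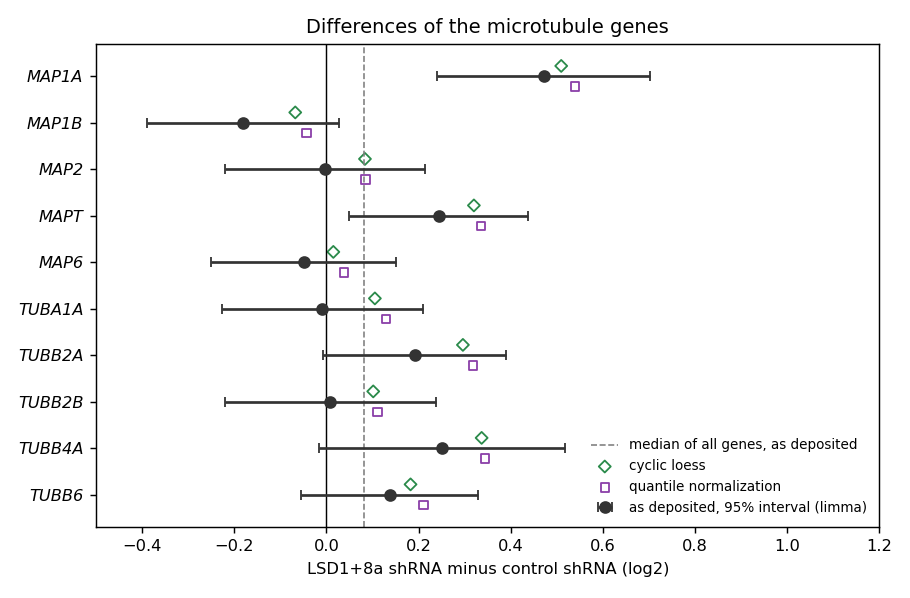
LSD1+8a shRNA minus control shRNA (x axis, log2) for the 10 genes (y axis), with black points and bars for the deposited values and their limma 95% intervals, and open markers for the same differences after cyclic loess or quantile normalization. The MAP1A interval runs from 0.24 to 0.70, and both other scalings place each of the 10 genes further to the right than the deposited values do.

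MAP1A encodes a heavy chain and a light chain cut from 1 precursor, which bind microtubules along dendrites and axons. It read 6.96 and 7.18 in control cells and 7.53 and 7.56 in LSD1+8a shRNA cells (log2 signal). The control arrays were thus both lower, and they lay further apart than the LSD1+8a arrays. The means were 7.07 ± 0.15 and 7.54 ± 0.02 (SD, n = 2), a log2 difference of 0.47 ± 0.10 (SE), which is 1.39-fold (95% interval 1.18 to 1.63; limma adjusted p = 0.0271). Relative to the median of all genes, which is not matched to its level, it was 0.39 higher. After cyclic loess the difference was 0.51 (limma adjusted p = 0.0346). When an array was left out, so that 1 array stood against 2 and the other group alone gave the gene's own spread, its limma adjusted p was 0.0667 (control replicate 1), 0.163 (control replicate 2), 0.0564 (LSD1+8a replicate 1) or 0.0480 (LSD1+8a replicate 2). It also missed the threshold when arrays were centred on all transcript clusters (0.0775) or when all transcript clusters were tested (0.0688).

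MAP1B, which promotes axon growth, gave values of 10.38 and 10.52 in control cells and of 10.29 and 10.25 in LSD1+8a shRNA cells. It was the only one of the 10 genes with both LSD1+8a arrays below both control arrays. Its log2 difference was -0.18 ± 0.09 (SE; limma adjusted p = 0.153), with a 95% interval from -0.39 to 0.03. After cyclic loess it was -0.07 (limma adjusted p = 0.529), and after centring on all transcript clusters -0.30 (limma adjusted p = 0.0823). The log2 ratio of MAP1A to MAP1B within an array was -3.42 and -3.34 in control cells and -2.77 and -2.69 in LSD1+8a shRNA cells. That ratio shifted by 0.65 on the log2 scale, or 1.57-fold, and its groups did not overlap. The shift follows from the differences of the single genes, which are the highest and the lowest of the 10. An exact two-sided permutation test gave p = 0.333, the smallest value that 2 arrays against 2 can give. The size of a ratio between different probes has no meaning here, and only its shift between groups was compared.

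MAPT encodes tau, which binds and spaces axonal microtubules. It measured 7.83 and 7.87 in control cells and 8.12 and 8.07 in LSD1+8a shRNA cells, so the groups did not overlap. The log2 difference was 0.24 ± 0.08 (SE), which is 1.18-fold, and it did not pass (limma adjusted p = 0.0649). It was past the threshold after cyclic loess (0.32, limma adjusted p = 0.0427) and after quantile normalization (0.34, limma adjusted p = 0.0348). It stayed higher, but by less than as deposited, after centring on gene medians (0.19, limma adjusted p = 0.132) and on all transcript clusters (0.12, limma adjusted p = 0.338). The second MAPT cluster, of an alternative haplotype of chromosome 17, gave a log2 difference of 0.23 beside 0.24 for the one used. The cluster summarises all splice forms of tau together.

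MAP2, the dendritic protein, had control values of 8.25 and 8.36 and LSD1+8a shRNA values of 8.37 and 8.24. Each LSD1+8a array lay near a different control array, and the log2 difference was -0.0030 ± 0.09 (SE; limma adjusted p = 0.983), with a 95% interval from -0.22 to 0.21. MAP6 encodes a protein that protects microtubules from cold-induced disassembly. Its readings were 7.67 and 7.77 in control cells and 7.66 and 7.68 in LSD1+8a shRNA cells, which overlap (log2 difference -0.05, limma adjusted p = 0.674). The log2 ratio of MAPT to MAP2 shifted by 0.25 without overlap of the groups, and that of TUBB2A to TUBB2B by 0.18, also without overlap. With MAP1A to MAP1B these were the 3 pairs compared. Each shift follows from the differences of the single genes. The share of gene pairs without overlap was not computed, and 74.4% of single genes did not overlap. Each had an exact permutation p of 0.333, and of 0.333 after Benjamini-Hochberg adjustment over the 3.

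TUBA1A, the main alpha-tubulin gene of developing neurons, had signals of 10.31 and 10.47 in control cells and of 10.41 and 10.35 in LSD1+8a shRNA cells. Both LSD1+8a values fell between the control values. The log2 difference was -0.00855 ± 0.09 (SE; limma adjusted p = 0.949). The deposited files do not show how far its probes separate it from TUBA1B and TUBA1C, whose coding sequences are very similar, so its value may mix these genes.

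TUBB2A and TUBB2B encode closely related beta-tubulins of neurons, and the same limit holds between them. TUBB2A stood at 9.21 and 9.23 in control cells and at 9.46 and 9.36 in LSD1+8a shRNA cells, with no overlap. Its log2 difference was 0.19 ± 0.09 (SE), or 1.14-fold, and did not pass (limma adjusted p = 0.122). It passed after quantile normalization (0.32, limma adjusted p = 0.0374) and, at the edge, after cyclic loess (0.30, limma adjusted p = 0.0499). Centring on gene medians gave 0.14 (limma adjusted p = 0.261) and centring on all transcript clusters 0.07 (limma adjusted p = 0.601). TUBB2B had 8.51 and 8.65 in control cells and 8.67 and 8.51 in LSD1+8a shRNA cells, so the LSD1+8a values enclose the control values (log2 difference 0.0081, limma adjusted p = 0.954).

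TUBB4A, a beta-tubulin gene known mainly from the brain and its myelinating cells, gave 8.10 and 8.21 in control cells and 8.55 and 8.26 in LSD1+8a shRNA cells. Replicate 1 of the LSD1+8a group stood apart from the other 3 arrays, with an SD of 0.20 in that group, the largest among the 10 genes. The log2 difference of 0.25 ± 0.11 (SE; limma adjusted p = 0.128) was 0.11 when that array was left out and 0.39 when the other LSD1+8a array was. TUBB6, a divergent beta-tubulin that is not restricted to neurons, read 7.30 and 7.36 in control cells and 7.46 and 7.47 in LSD1+8a shRNA cells. Its groups did not overlap, and its log2 difference of 0.14 ± 0.08 (SE) did not pass (limma adjusted p = 0.226). Of the 5 tubulin genes, limma called 0, and 0 had an unadjusted p under 0.05. Their median log2 difference was 0.14, and that of the 5 microtubule-associated protein genes was -0.0030.

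**Figure D3:**
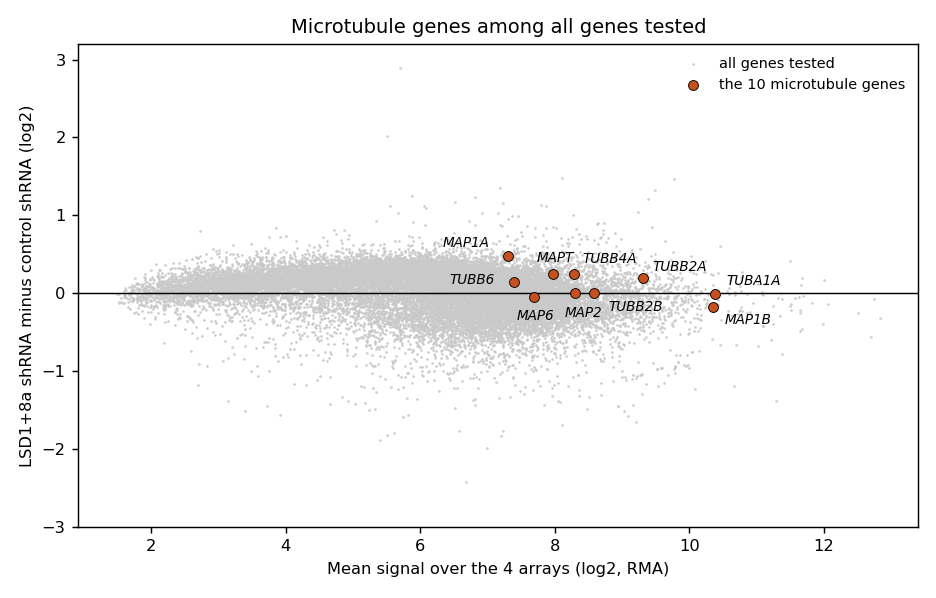
LSD1+8a shRNA minus control shRNA (y axis, log2) against the mean log2 RMA signal over the 4 arrays (x axis) for all 22465 genes tested (grey), with the 10 microtubule genes in orange. The 10 genes lie in the right part of the cloud, between -0.18 and 0.47.

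Some scalings changed how many of the 10 genes were called. Quantile normalization and cyclic loess each called 3 genes higher, MAP1A, MAPT and TUBB2A, and 0 lower. Of the 22465 genes tested, quantile normalization called 1561 higher and 1932 lower (15.5% together). Cyclic loess called 680 higher and 1763 lower (10.9% together). Centring on the medians of all transcript clusters called 0 (limma, 2 at an unadjusted p under 0.05). The direction of MAP2, MAP6 and TUBA1A turned from lower to higher under quantile normalization and cyclic loess, and that of TUBB2B turned to lower under either centring, at sizes of 0.13 or less on the log2 scale.

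A wider list of 115 genes of the microtubule system had 106 measured under a single symbol. Of these, 5 rose, 10 fell and 91 did not pass (limma, adjusted over all genes), which is 14.2% called, beside 23.3% of all genes. Its median log2 difference was 0.02. After cyclic loess 3 were called higher and 3 lower. When 1 array was left out, limma called 0 of them for control replicate 1 (29 at an unadjusted p under 0.05), 0 for control replicate 2 (15), 5 for LSD1+8a replicate 1 (5 higher and 0 lower) and 11 for LSD1+8a replicate 2 (6 higher and 5 lower).

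The 5 that rose spanned several roles. DCX, doublecortin, which stabilises microtubules in young neurons, read 6.57 and 6.92 in control cells and 7.43 and 7.80 in LSD1+8a shRNA cells, a log2 difference of 0.87 ± 0.16 (SE; limma adjusted p = 0.0206). CDK5R2, an activator of the tau kinase CDK5, rose by 0.78 and MAPRE3, which binds growing microtubule ends, by 0.60. These 3 also passed after cyclic loess, with limma adjusted p-values of 0.0361, 0.0264 and 0.0243. TTLL10, of the tubulin tyrosine ligase-like family, rose by 0.36 and TUBB1, the beta-tubulin of platelets, by 0.37. TUBB1 read 4.77 to 5.32, among the background features with a GC count of 15 to 17. TTLL10 read 6.39 to 6.87, among those with a GC count of 19 to 21. After cyclic loess neither TTLL10 nor TUBB1 passed (limma adjusted p = 0.0577 and 0.218). On control replicates 1 and 2 DCX (6.57 and 6.92) lay around the background feature with a GC count of 20 (6.70 and 6.63).

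The 10 that fell also spanned several roles. Of 10 measured stathmins and severing enzymes, 2 fell and 0 rose (20% called, beside 23.3% of all genes). The other 8 were not called, FIGN among them with a log2 difference of 0.26. SPAST, which encodes the microtubule-severing enzyme spastin, fell from 8.65 and 8.79 to 8.29 and 8.31, a log2 difference of -0.42 ± 0.09 (SE; limma adjusted p = 0.0275), and its relative FIGNL1 fell by 0.42. TUBD1, delta-tubulin of centrioles, differed by -0.54, EML1, a microtubule-binding protein, by -0.40, and SVBP, the partner of the enzymes that remove the last tyrosine of alpha-tubulin, by -0.39. The kinase genes TTBK2 and MAPK9 differed by -0.43 and -0.37. After cyclic loess SPAST, TUBD1 and EML1 were still called. TUBD1 read 5.55 to 6.29, among the background features with a GC count of 17 to 19. Of 12 measured folding cofactors, which assemble tubulin dimers, 3 fell and 0 rose, with a median log2 difference of -0.26. That is 25% called, close to the 23.3% of all genes. These were TBCEL (-0.34), CCT3 (-0.33) and CCT5 (-0.31), named here after their values were seen, and 0 of the 12 passed after cyclic loess or quantile normalization.

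The other well-known relatives that the naming rule takes did not pass. TUBA1B, TUBB and TUBB4B, widely expressed tubulin genes, had log2 differences of -0.12, -0.05 and -0.09 (limma adjusted p = 0.354, 0.714 and 0.480). MAP4, a microtubule-associated protein of many cell types, had 0.25 (0.121), and STMN2, a neuronal regulator of tubulin assembly, 0.11 (0.347). TUBB3 and STMN1 share their clusters with another symbol and are not given.

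**Figure D4:**
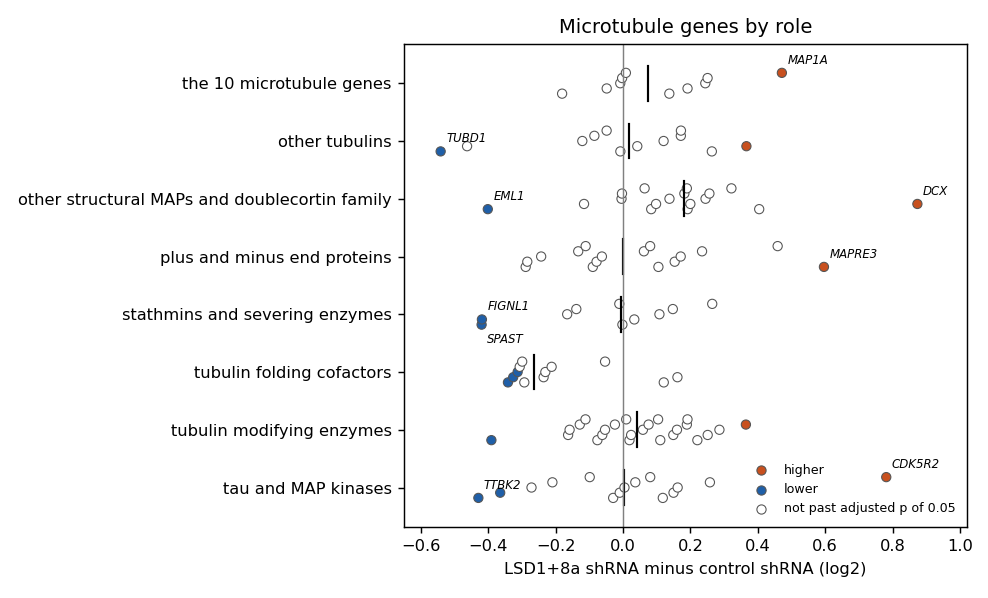
LSD1+8a shRNA minus control shRNA (x axis, log2) for the 10 genes and for 7 classes of the wider list (y axis), 1 point per gene, filled where limma's adjusted p was below 0.05 and open otherwise, with a black line at each median. The tubulin folding cofactors have the lowest median (-0.26), and the genes furthest to the right are DCX (0.87) and CDK5R2 (0.78).

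Markers of dividing cells moved with the groups. Of 10 proliferation markers 9 fell and 0 rose (90% called, where 12.1% of all genes were called higher and 11.2% lower), with a median log2 difference of -0.69. Their mean log2 signal was 7.82 and 8.11 in control cells against 7.32 and 7.31 in LSD1+8a shRNA cells. Of 12 adrenergic markers 4 rose and 1 fell (41.7% called, beside 23.3% of all genes), with mean signals of 8.62 and 8.74 against 8.94 and 8.79. Of 11 mesenchymal markers 1 rose and 3 fell (36.4% called), with mean signals of 5.95 and 5.85 against 5.77 and 5.87. Of 4 Schwann and glial markers 2 rose and 0 fell (50% called), with mean signals of 5.81 and 5.71 against 5.95 and 6.005. After cyclic loess 5 of the proliferation markers fell, and 0 of the Schwann and glial markers passed. RMA lists no gene at 0, and the part of these markers in the values of the microtubule genes was not tested.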

How the data were processed

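RNA from 4 samples was hybridised to the Affymetrix human transcriptome array, second version, 2 arrays per group. The deposited values are log2 signals after RMA, the method named in the submitters' processing notes. Which software, annotation or genome build it used is not given in the sources used here. Of 70523 features, 67528 are transcript clusters, and those with 1 platform symbol gave 22465 genes. RMA keeps no detection call, so 23 background features served as a guide.

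Groups were compared by limma 3.58.1 in R 4.3.3 (lmFit, eBayes), without a filter or replicate term, with Benjamini-Hochberg adjustment over all genes and a threshold of 0.05. The spread had 2 residual degrees of freedom plus 5.41 from all genes, so the number of arrays limits the precision. The script was tested on simulated data, with 50 genes changed at each size. It recovered 0% of log2 changes of 0.4, 38% of 0.6, 90% of 1 and 98% of 2. That simulation gave 114 calls, against 5245 in the data, so its recovery does not carry over to them. Other settings tried were array scaling, moderation, filtering, clusters, thresholds, a replicate block and leaving out arrays. The members, lists and settings were chosen with earlier results of these data known. Genes named are the 10, KDM1A, called genes among the 15 largest differences of the wider list, and 8 fixed relatives. TBCEL, CCT3, CCT5, FIGN, GATA3, ISL1, INSM1, DBH and SOX10 lie outside that rule and were chosen after their values were seen. Exact tests used scipy 1.17.1 and figures matplotlib 3.10.9.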

Additional observations from a re-analysis of the deposited data

How the results depend on the processing

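Counts depended on the processing. Genes called (5245) became 176 at an adjusted p of 0.01, 9576 at 0.10, 3493 after quantile normalization, 2443 after cyclic loess, 881 when all transcript clusters were tested and 0 to 2834 with 1 array left out. Of the 10 genes, 1 was called as deposited, 0 at an adjusted p of 0.01, 2 at 0.10 (MAP1A and MAPT), 3 after quantile normalization, 3 after cyclic loess, 0 with medians of all transcript clusters centred (a setting added after seeing the data), 0 when all transcript clusters were tested, which adjusts over 67528 tests, and 0 to 1 with 1 array left out. Of the wider list, 15 became 0 at 0.01, 31 at 0.10, 6 after cyclic loess, 2 among all transcript clusters and 0 to 11 with 1 array left out. The signs of uncalled genes near 0 turned: MAP2 to 0.085 and 0.084, MAP6 to 0.039 and 0.015 and TUBA1A to 0.13 and 0.11 after quantile normalization and cyclic loess, and TUBB2B to -0.043 and -0.11 after centring on genes and on all transcript clusters. With 1 array left out, MAP2 ran from -0.070 to 0.064, MAP6 from -0.10 to 0.0029, TUBA1A from -0.0925 to 0.075 and TUBB2B from -0.072 to 0.089. MAP1A was higher in every setting run, from 0.35 to 0.58. The cause of these changes was not tested.

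With the replicate number as a block, limma called 7954 genes, 1 of the 10 (MAP1A) and 26 of the wider list. The deviations of same-numbered arrays correlated at 0.02 over genes. The labels do not say whether same-numbered arrays shared a culture or a day, and 1 correlation over genes cannot decide it.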

Other observations

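All 10 microtubule genes read higher on control replicate 2 than on control replicate 1, by 0.02 to 0.22 on the log2 scale (median 0.11), while the median over all genes was -0.02. Between the LSD1+8a arrays, 7 of the 10 read higher on replicate 1. The proliferation markers also had a higher mean signal on control replicate 2 (8.11 against 7.82). So did the adrenergic markers (8.74 against 8.62) and the wider microtubule list (7.47 against 7.43). The mesenchymal markers (5.85 against 5.95) and the Schwann and glial markers (5.71 against 5.81) were lower there. The 10 genes stood high by mean signal (percentiles 75.8 to 99.7), and differences between replicate arrays were not compared with those of genes of matched level.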
